A study of Mus musculus with 26 samples.

Results

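TRIM and RNF genes mostly encode ubiquitin ligases with a RING finger, named for a tripartite motif (TRIM) or numbered as RING finger proteins (RNF). They were taken here by symbol, as gene rows called Trim or Rnf plus a number and at most 1 letter, that also carry a value in the deposited log2 column. This gave 87 genes, 37 TRIM and 50 RNF, of 135 rows with such a symbol and of 19549 gene rows in all. The other 48 rows had a count of 0 in at least 4 of the 26 libraries and carried no log2 value. The highest level among those 48 was 40.5 CPM (counts scaled to a common library total), of Rnf152 in 1 library. In 9 further rows the authors had joined a TRIM or RNF symbol with that of an overlapping gene, and these rows were left out.

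The study compared the transcriptome and the translatome of macrophages from mouse mammary tumours that differed in size. All 13 tumours grew from PyMT mammary tumour cells placed into an inguinal mammary gland of female FVB mice aged 5 to 7 weeks at that time, and no further allele or agent separates the animals. Macrophages were flow sorted as CD11b+ F4/80+ Ly6G- cells and held in cycloheximide, a drug that keeps ribosomes on mRNA. Total mRNA came from about 10% of the sorted population, and the remaining cells yielded polysome mRNA, which carried at least 3 ribosomes on a sucrose gradient. The groups were therefore total and polysome mRNA of 8 small tumours (467 to 841.8 mg) and of 5 large tumours (1504 to 2245 mg), with both libraries of a tumour made from 1 sorted population. Small replicates 1 to 5 and large replicates 1 and 2 formed batch 1, and small replicates 6 to 8 and large replicates 3 to 5 formed batch 2. The replicates are tumours, so the p-values measure the spread between tumours.

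Ubiquitin is passed from an activating enzyme to a conjugating enzyme (E2) and from there, with the help of a ligase (E3), to a target protein. A RING ligase holds the loaded E2 next to the target, and the chain that results can send the target to the proteasome or change its signalling. In macrophages several TRIM proteins are known for sensing viral RNA, DNA or antibody-coated virus, and many of their genes are induced by interferon, while RNF proteins serve in DNA repair, chromatin, the endoplasmic reticulum and endosomes.

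Libraries held 18018519 to 55609113 counts for total mRNA and 7034173 to 28257436 for polysome mRNA. The 87 genes together took 0.216% to 0.369% of the counts of a total library and 0.343% to 0.545% of those of a polysome library. Adgre1, which encodes F4/80, stood at 119 to 1050 CPM in total mRNA and 41.5 to 811 CPM in polysomes, Itgam (CD11b) at 16.7 to 426 and 43.7 to 1270 CPM, and Ly6g at no more than 0.0882 CPM in any library. Over the 87 genes, the total mRNA libraries of small replicates 6, 7 and 8 and of large replicate 3 stood apart: their median correlation with the other total libraries was 0.682 to 0.78, against 0.837 to 0.924 for the other 9. The summed level of 10 markers of mammary epithelium and tumour cells, none of them at 0 throughout a group, was 133 to 4120 CPM in those 4 libraries and 61 to 428 CPM in the other 9. The summed level of 10 macrophage markers was 40300 to 186000 and 56800 to 115000 CPM in the same sets, and that of 10 fibroblast markers 74.5 to 3410 and 115 to 2210 CPM. The part of these markers in the results was not tested, and the main counts are given below with and without those 4 tumours. In sorted cells in bulk, fewer cells with an mRNA and less of it per cell cannot be told apart.

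The most abundant members per kilobase of coding sequence in total mRNA were Rnf187, Rnf13, Rnf7 and Rnf4. Their median levels over the 13 tumours were 236, 228, 198 and 191 CPM per kilobase. Rnf141 (89.1), Rnf5 (75.3), Trim35 (63.5), Rnf2 (60), Rnf41 (56.5) and Rnf115 (55.4 CPM per kilobase) followed. The order differed in polysomes, where Rnf4, a ligase that recognises proteins carrying SUMO chains, led with a median of 437 CPM per kilobase. Rnf187 had 253, Rnf141 232 and Rnf13 131 CPM per kilobase there. Rnf7, a RING subunit of cullin ligases, had only 42.3 and Rnf2, the catalytic subunit of the Polycomb complex that ubiquitinates histone H2A, only 11.

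The polysome fraction was richer in many of these mRNAs than total mRNA. The comparison asks which ligase mRNAs take a larger or smaller place on polysomes than in the same cells' total mRNA. Of the 87 genes, 38 (43.7%) were higher in polysomes and 25 (28.7%) lower at an adjusted p below 0.05 (edgeR quasi-likelihood test with the tumour as a block and Benjamini-Hochberg adjustment over 12109 genes). Over all genes tested, 22.6% were higher and 34% lower. The median log2 fold was 0.46 for the 87 genes and −0.34 for all genes. These sets were not filtered alike, since members needed a log2 value and the 12109 genes did not. The TRIM and RNF rows without that value had counts of 0 in more polysome than total libraries. The rule thus leans towards members present in polysomes. At a mean of at least 10 CPM, 31.3% of 8053 genes were higher and 36% lower (median −0.09). Of 68 members, 37 were higher and 20 lower there (median 0.90). Only the members needed a log2 value in this setting too, so it does not make the sets alike. Members were not compared with all genes that carry a log2 value. RNF genes had a median of 0.95, with 26 higher and 17 lower of 50, and TRIM genes one of −0.04, with 12 higher and 8 lower of 37. In the plot of folds by role the called members lie on both sides of 0 in each of the 4 lists. A fold here sets a polysome library beside a total library of the same tumour after scaling, so 0 is not a measured balance point.

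**Figure D1:**
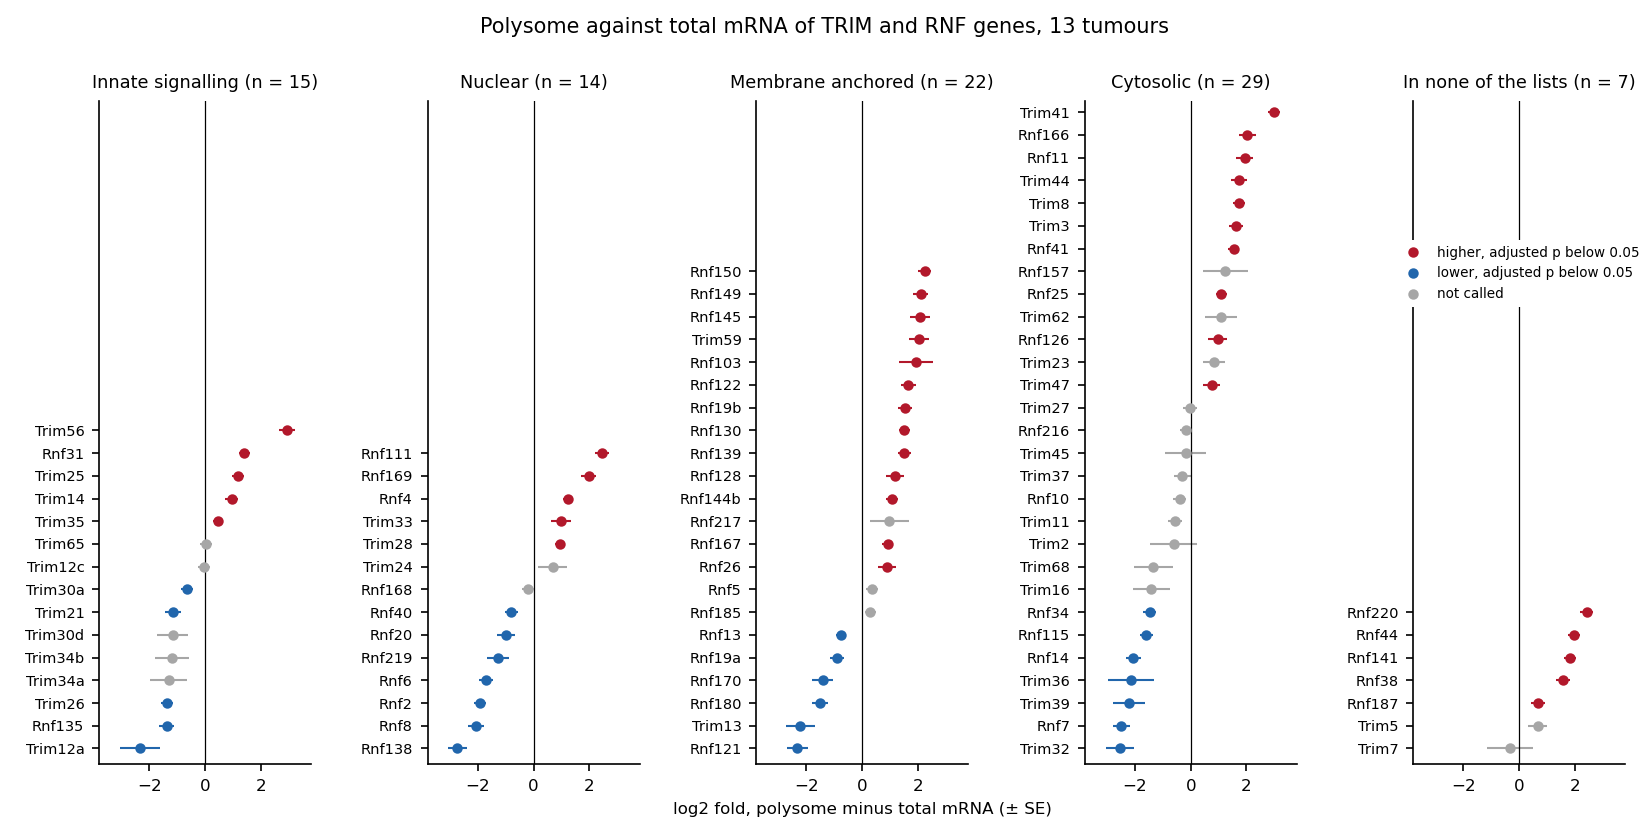
Log2 fold of polysome minus total mRNA (x axis, ± SE, 13 tumours) for each of the 87 genes (y axis), in 5 panels by role. Red points were higher and blue points lower at an adjusted p below 0.05, and grey points were not called. Membrane anchored ligases hold 13 red and 6 blue points, nuclear ligases 5 red and 7 blue.

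Without small replicates 6, 7 and 8 and large replicate 3, a comparison added after the data were seen, 32 of the 87 genes were higher and 23 lower in polysomes, where 20.5% and 25.6% of all genes were. Batch 1 alone gave 34 and 21, beside 21.3% and 27.9% of all genes, and batch 2 alone gave 24 and 12, beside 14% and 15.9%. Of the 63 called genes, 62 had the same sign in both batches fitted alone. The exception was Rnf167, a transmembrane ligase of endosomes, at 1.85 in batch 1 and −0.10 in batch 2.

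The innate signalling list divided evenly, with 5 of 15 genes higher and 5 lower in polysomes (33.3% each), and a median of −0.66. Over all genes, 22.6% were higher and 34% lower. Batch 1 alone gave 5 higher and 3 lower in this list, beside 21.3% and 27.9% of all genes. Batch 2 alone gave 1 and 2 (6.67% and 13.3%), beside 14% and 15.9% of all genes. Trim56, a ligase of cytosolic DNA sensing, had levels of 7.5 CPM at the lowest, 11.3 at the median and 81.1 at the highest in total mRNA, and 23.6, 127 and 326 CPM in polysomes. It was higher in polysomes in 12 of 13 tumours, by 2.94 ± 0.27 (log2, SE, adjusted p = 3.27e-09). The exception was small replicate 8, whose total library held the 81.1 CPM. Rnf31, the catalytic subunit of the linear ubiquitin chain complex, rose from a median of 27 to 59.2 CPM (1.41 ± 0.21), and Trim25, a ligase of the RNA sensor RIG-I, from 15.6 to 29.5 CPM (1.18 ± 0.22). Trim14, an adaptor of antiviral signalling, was higher by 0.95 and Trim35 by 0.46.

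Other innate ligases went the opposite way. Rnf135, also called Riplet and like Trim25 a ligase of RIG-I, was at 14.3, 29.4 and 36 CPM (lowest, median, highest) in total mRNA and at 1.76, 11.5 and 20.3 CPM in polysomes. It was lower in polysomes in all 13 tumours, by −1.37 ± 0.27 (adjusted p = 1.19e-04). The folds of these RIG-I ligases thus sat on opposite sides of 0, in both batches alone: Trim25 at 1.73 and 0.77, Rnf135 at −1.44 and −1.32. Within batch 2, Trim25 was below 0 in large replicates 3 (−0.285) and 4 (−0.051). The difference between the genes was not tested. Trim26 had no polysome library (5.87 to 35.2 CPM) as high as its lowest total library (35.6 CPM), with a fold of −1.36 ± 0.23. Trim21, the cytosolic antibody receptor, was at −1.14 ± 0.29 and lower in all 13 tumours. Trim30a, a mouse gene known as an interferon-induced brake on NF-kB signalling, was at −0.66 ± 0.21. Trim12a, with a median of 2.46 CPM in total mRNA, was at −2.34 ± 0.72.

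Among the 14 nuclear ligases, 5 were higher and 7 lower (35.7% and 50%), beside 22.6% and 34% of all genes. Their median was −0.50, and batch 2 alone gave 4 and 3, beside 14% and 15.9% of all genes. The histone H2A ligase Rnf2 had 25.2, 60.4 and 102 CPM in total mRNA and 6.23, 11.1 and 34.9 CPM in polysomes. It was lower in 12 of 13 tumours, by −1.92 ± 0.22 (adjusted p = 8.38e-08). Rnf8, which starts the ubiquitin response at DNA breaks, ran from 16.5 to 47.2 CPM in total mRNA and from 1.74 to 11.9 CPM in polysomes, so its groups did not overlap, and its fold was −2.07 ± 0.28. Rnf138, a ligase of DNA end resection, fell by 2.73 ± 0.34 and Rnf6 by 1.70 ± 0.25. Rnf20 and Rnf40, the pair that ubiquitinates histone H2B, were both lower, by −0.98 ± 0.31 and −0.80 ± 0.23.

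The nuclear members that rose included both SUMO-targeted ligases. Rnf111 was at 13.7, 21.2 and 81.1 CPM in total mRNA and at 71.4, 163 and 266 CPM in polysomes, higher in all 13 tumours by 2.46 ± 0.24 (adjusted p = 7.62e-09). Rnf4 was at 48.2 to 151 CPM in total mRNA and 165 to 300 CPM in polysomes, with no overlap and a fold of 1.25 ± 0.18. Rnf169, which binds the ubiquitin mark at DNA breaks, also did not overlap (2.19 to 16.4 against 18.1 to 66.2 CPM) and was higher by 1.98 ± 0.28. Its neighbour in that pathway, Rnf168, had a fold of −0.20 ± 0.22 (adjusted p = 0.454). Trim28, the corepressor of KRAB zinc finger proteins, was at 0.94 ± 0.19 and its relative Trim33 at 0.99 ± 0.35, while Trim24 had 0.69 ± 0.52 (adjusted p = 0.264).

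In all, 3 of the 87 genes had every polysome level above every total level, where 1.3% of all genes did, and 2 had every polysome level below, where 2.72% of all genes did. These are Rnf4, Rnf169 and Trim41 above and Rnf8 and Trim26 below, and the plot of paired levels shows 4 of the 5.

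**Figure D2:**
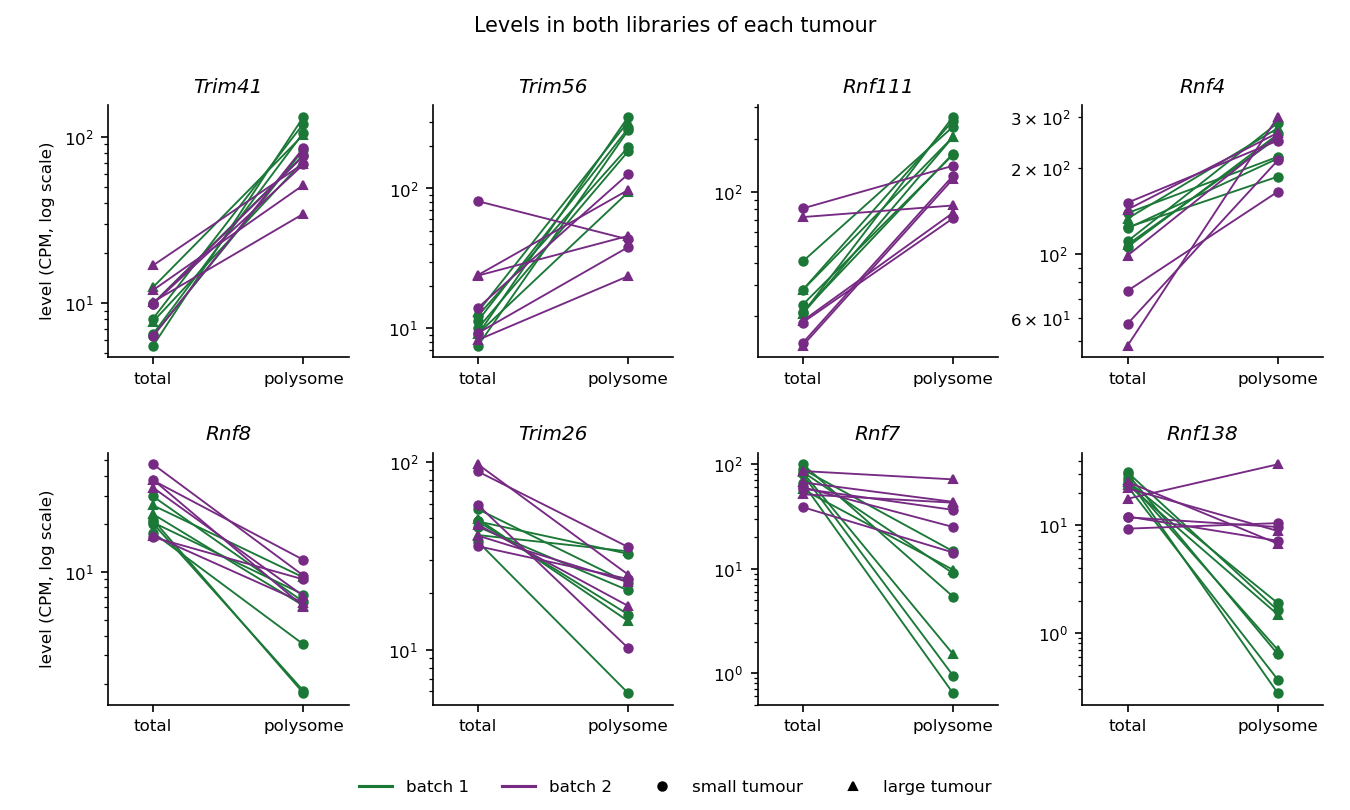
Levels of 8 genes in both libraries of each tumour (y axis, TMM-scaled CPM on a log scale; lines join total and polysome mRNA of 1 tumour). Green marks batch 1 and purple batch 2, circles small and triangles large tumours. Trim41 and Rnf4 rise in all 13 tumours, and Rnf7 and Rnf138 drop further in batch 1 than in batch 2.

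Membrane anchored ligases had the highest share of higher genes among the 4 lists, with 13 of 22 higher and 6 lower (59.1% and 27.3%). Over all genes these shares were 22.6% and 34%. The median of this list was 1.03, and batch 2 alone gave 9 and 2, beside 14% and 15.9% of all genes. The 6 members with a protease-associated domain, which sit in endosomes and at the cell surface, had 5 higher and 1 lower. Rnf150 was at 6.1, 24 and 62.2 CPM in total mRNA and 48.2, 108 and 199 CPM in polysomes, higher in all 13 tumours by 2.24 ± 0.23 (adjusted p = 1.98e-08). Rnf149 (2.09 ± 0.28), Rnf130 (1.52 ± 0.21), Rnf128, the T cell anergy ligase also called GRAIL (1.19 ± 0.33), and Rnf167 (0.92 ± 0.21) rose with it. Rnf13, the most abundant of the 6 in total mRNA at a median of 261 CPM, was the exception: it had 150 CPM in polysomes and a fold of −0.77 ± 0.19.

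Of the ligases of the endoplasmic reticulum, Rnf145, which acts in sterol control, was at 1.59, 45.6 and 83.7 CPM in total mRNA and at 64.5, 126 and 620 CPM in polysomes. It was higher by 2.09 ± 0.36, in 12 of 13 tumours. Rnf139, another ligase of sterol control, was higher by 1.51 ± 0.23. Rnf5 and Rnf185, close relatives of the degradation pathway in that membrane, had 0.35 ± 0.21 and 0.30 ± 0.19 and were not called. Rnf121 had 12.1, 24.4 and 54.8 CPM in total mRNA and 0.0917, 6.66 and 15.4 CPM in polysomes, lower in all 13 tumours by −2.32 ± 0.38. Trim13 and Trim59, anchored in the same membrane system, were at −2.21 ± 0.53 and 2.03 ± 0.37, and both depended on the batch.

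Of the 29 cytosolic ligases, 10 were higher and 7 lower (34.5% and 24.1%), beside 22.6% and 34% of all genes. Their median was −0.17, and batch 2 alone gave 5 and 5, beside 14% and 15.9% of all genes. Trim41 had the highest fold of the 87 genes. It was at 5.56, 9.91 and 16.9 CPM in total mRNA and 34.5, 77.7 and 132 CPM in polysomes, with no overlap and a fold of 2.99 ± 0.20 (adjusted p = 1.01e-10). Trim41 lies on mouse chromosome 11 (48806404 to 48817353, minus strand, GRCm38) and overlaps Rack1 on the other strand. The library method keeps no strand, so reads of any shared part cannot be told apart. The same holds for Rnf2 with Trmt1l, Rnf34 with Kdm2b, Rnf126 with Fgf22, Rnf139 with Tatdn1, Rnf141 with Ampd3 and Rnf167 with Slc25a11. It also holds for Trim13 with Dleu2, Trim14 with Nans, Trim28 with Zbtb45 and Trim32 with Astn2. Rnf31 with Irf9 and Trim47 with Trim65 overlap on the same strand, where strand would not part the reads either. The overlaps are of whole gene spans, and the reads they share were not counted. Rnf26 shares 72.2% of its 50-base words with other genes, Rnf7 and Rnf8 30.7% each and Rnf149 26.9%, so their counts are uncertain too. Rnf166 was higher by 2.03 ± 0.29, Trim8, known in cytokine signalling, by 1.73 ± 0.22 and Rnf41, a ligase of receptor turnover, by 1.54 ± 0.19.

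At the other end, Trim32 was at 10.3, 23.6 and 32.8 CPM in total mRNA and 0 (1 library), 4.59 and 20.6 CPM in polysomes, lower in all 13 tumours by −2.53 ± 0.50. Rnf7 had 38.9, 67.1 and 100 CPM in total mRNA and 0.642, 14.3 and 71.7 CPM in polysomes, with a fold of −2.48 ± 0.31 (adjusted p = 3.37e-07). Rnf14, a ligase of the RING-between-RING type, was at −2.06 ± 0.26 and Trim39 at −2.21 ± 0.58. The 7 members of the RING-between-RING type did not move as 1 group, with 3 higher and 2 lower, beside 22.6% and 34% of all genes. Of the 7 genes in none of the 4 lists, 5 were higher, among them Rnf220 (2.41 ± 0.23) and Rnf44 (1.97 ± 0.22), and none was lower.

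In these folds, coding sequence of higher GC content went with higher folds, across genes (which are not independent replicates). Spearman's rho between fold and coding GC was 0.35 over the 87 genes and 0.38 over 11093 genes with an annotated coding sequence. The median coding GC was 56.5% in the 38 higher genes, 50.1% in the 25 lower ones and 53% in all genes tested. Median transcript lengths were 3270 bases in the higher and 3200 in the lower genes. Spearman's rho between fold and transcript length was 0.23 over the 87 genes and 0.20 over the 11093 genes. With the trends of transcript length and coding GC removed from each library, a setting added after the data were seen, 34 genes were higher and 22 lower, where 19.4% and 31.7% of all genes were, and the median log2 fold was 0.15 against −0.36 for all genes. Of the 63 earlier calls, 15 were lost, 8 of the 38 higher and 7 of the 25 lower. Rnf13 (0.41), Rnf187 (−0.32), Trim35 (−0.39) and Trim47 (−0.04) then had the opposite sign and no call. The other 11 kept their sign: Trim25 went from 1.18 to 0.43, Trim14 from 0.95 to 0.38, Trim33 from 0.99 to 0.52, Rnf126 from 0.98 to 0.53 and Rnf26 from 0.90 to 0.61. Trim30a went from −0.66 to −0.03, Trim13 from −2.21 to −0.89, Trim12a from −2.34 to −1.31, Rnf170 from −1.42 to −0.66, Rnf219 from −1.28 to −0.77 and Trim36 from −2.14 to −1.90.

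The other enzymes of the pathway were taken from lists of known pathway members. Of 29 E2 enzymes, 7 were higher and 15 lower in polysomes (24.1% and 51.7%, median −0.61), beside 22.6% and 34% of all genes. Batch 1 alone gave 6 and 16, beside 21.3% and 27.9% of all genes, and batch 2 alone 5 and 4, beside 14% and 15.9%. Of the 29, 8 (27.6%) had a called upward batch difference, beside 10.5% of all genes. Ube2d3, an E2 that serves many RING ligases, went from 289 ± 120 to 99.7 ± 67.4 CPM (SD, n = 13; fold −1.67 ± 0.19, with −2.20 in batch 1 and −1.16 in batch 2). Ube2n, which builds a chain type of innate signalling, went from 123 ± 46 to 36.3 ± 38.7 CPM (−1.99 ± 0.24, with −2.82 in batch 1 and −1.10 in batch 2). Ube2q1 (2.53 ± 0.22) and Cdc34, the E2 of cullin ligases (1.68 ± 0.21), were higher. Of 22 HECT ligases, the class that carries ubiquitin itself, 8 were higher and 5 lower (36.4% and 22.7%). Ube3b was at 2.64 ± 0.20 (3.45 and 1.88 in batches 1 and 2) and Herc4 at −2.26 ± 0.24 (−2.74 and −1.53). Of 50 RING ligases with other names, 17 were higher and 14 lower (34% and 28%). They ran from Znrf2 at 3.52 ± 0.26 to Vps41 at −2.39 ± 0.24.

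The 21 partners of innate ligases, the sensors, adaptors and kinases around RIG-I, cGAS and the linear chain complex, had 6 higher and 7 lower. These shares, 28.6% and 33.3%, were near the 22.6% and 34% of all genes. Sharpin, a subunit of the linear chain complex with Rnf31, was higher by 1.77 ± 0.20, with 2.84 in batch 1 and 0.58 in batch 2 (difference −2.41 ± 0.38, adjusted p = 0.00014 with edgeR). Otulin, which cleaves linear chains, was higher by 2.27 ± 0.32. The third subunit, Rbck1, was at 0.17 ± 0.18 (adjusted p = 0.454). Tbk1, the kinase below several sensors, went from 43.5 ± 26.7 CPM to 6.62 ± 4.25 CPM on polysomes (−2.64 ± 0.34), and Map3k7 and its adaptor Tab2 were higher by 1.93 ± 0.25 and 2.00 ± 0.22.

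The size of the polysome difference itself depended on the batch for some members. The batch difference (batch 2 minus batch 1) was called upward in 9 of the 87 genes and downward in 9 (edgeR, adjusted p below 0.05). Of all genes, 10.5% were called upward and 6.95% downward. Spearman's rho between batch difference and coding GC was −0.46 over the 87 genes and −0.33 over 11093 genes. For the fold itself, rho over the 87 genes was 0.41 in batch 1 and 0.22 in batch 2. With length and GC trends removed, 5 members were called upward and 8 downward, beside 7.75% and 7.21% of all genes. The cause was not tested. Rnf138 was at 0.275 to 1.89 CPM in the 7 polysome libraries of batch 1 and at 6.76 to 37 CPM in the 6 of batch 2, with no overlap. Its fold was −4.79 ± 0.52 in batch 1 and −0.51 ± 0.45 in batch 2, a difference of 4.44 ± 0.66 (adjusted p = 7.09e-05). Rnf7 (−4.18 and −0.74), Trim13 (−4.59 and −0.42) and Rnf2 (−2.80 and −0.78) were likewise further below 0 in batch 1. Rnf11 (0.71 and 3.21) and Trim59 (0.90 and 3.21) were further above 0 in batch 2.

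Of the members with a downward batch difference, all but Trim11 were called higher on polysomes over all tumours. Trim56 had a median of 261 CPM in batch 1 polysomes and of 44.5 CPM in those of batch 2, with folds of 4.34 ± 0.29 and 1.54 ± 0.47 (difference −2.81 ± 0.52). Trim3 had 2.97 and 0.12, Rnf25 2.10 and 0.07, Rnf44 2.85 and 0.95, and Rnf31 2.21 and 0.76. Their total mRNA differed too: the median of Trim3 was 4.58 CPM in batch 1 and 18.4 CPM in batch 2, and that of Rnf44 31.6 and 124 CPM. Without small replicates 6 to 8 and large replicate 3, which leaves 2 tumours in batch 2, none of the 87 genes had a called batch difference by edgeR, with 11 at an unadjusted p below 0.05. Over all genes, 0.838% were called in that fit and 14.4% had an unadjusted p below 0.05. Without large replicate 2 alone, 4 members were called upward, where 7.82% of all genes were. Lars2 took 4.80% to 25.9% of the counts of polysome libraries in batch 1 and 2.17% to 10.3% in batch 2, and with Lars2 left out the calls were again 9 and 9.

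**Figure D3:**
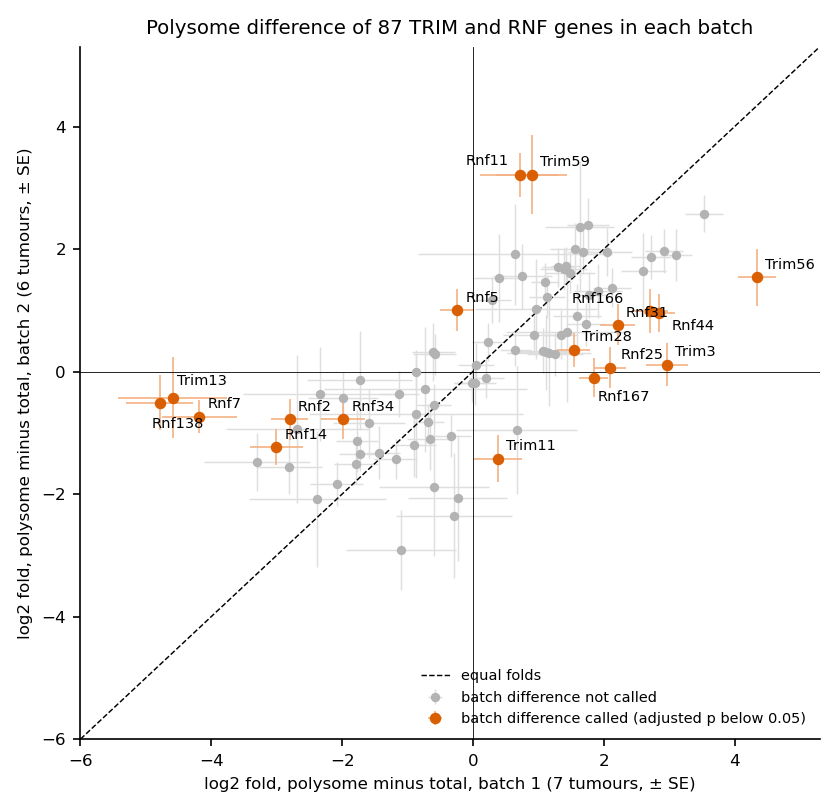
Log2 fold of polysome minus total mRNA in batch 1 (x axis, 7 tumours) and batch 2 (y axis, 6 tumours) with SE bars, for 87 genes. Orange points have a called batch difference, and the dashed line marks equal folds. Rnf138, Rnf7 and Trim13 lie left of −4 on the x axis and above −1 on the y axis.

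A row of related TRIM genes lies on mouse chromosome 7, from Trim34a at 104244457 to Trim30d, which ends at 104507849 (GRCm38). Between them stand Trim5, Trim12a, Trim34b, Trim12c and Trim30a. Several genes of this row are known to be induced by interferon. Trim30a was the most abundant in total mRNA, at 19.6, 63.1 and 87.1 CPM, followed by Trim12c at 12.8, 30.1 and 44.3 CPM. The other 5 had medians of 2.46 to 4.87 CPM. They share sequence: 59% of the 50-base words of Trim34b transcripts and 38.1% of those of Trim5 also occur in other genes, so the authors' counting could divide or drop such reads, and these levels are uncertain.

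The starts of 4 of these genes are shown because they bear a word of the interferon-response kind near the start. The word is GAAA, any 2 bases and GAAA again, searched on both strands from 250 bases before to 50 bases after each RefSeq start. Each line gives the 100 bases before the start, 5′ to 3′ on the gene's own strand, and capitals mark the word, here read from the other strand.
Trim5: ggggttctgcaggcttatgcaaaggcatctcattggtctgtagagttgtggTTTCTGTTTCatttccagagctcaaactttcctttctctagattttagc
Trim12c: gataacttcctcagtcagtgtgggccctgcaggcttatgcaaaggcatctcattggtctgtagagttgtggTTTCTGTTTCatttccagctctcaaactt
Trim30a: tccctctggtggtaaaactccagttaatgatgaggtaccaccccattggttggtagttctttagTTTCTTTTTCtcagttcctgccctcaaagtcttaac
Trim30d: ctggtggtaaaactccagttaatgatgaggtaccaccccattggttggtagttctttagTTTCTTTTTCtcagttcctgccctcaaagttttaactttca
The lines are minus strand, RefSeq on GRCm38.p6, and each lies within the searched window of its gene. These windows are chr7:104288057-104288356 for Trim5, chr7:104353300-104353599 for Trim12c, chr7:104465144-104465443 for Trim30a and chr7:104507800-104508099 for Trim30d. Trim30a and Trim30d share an unbroken run of 89 bases, and Trim5 and Trim12c one of 63 bases, each with the word inside. Trim5 or Trim12c share no more than 7 bases in a row with Trim30a or Trim30d.

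Of 67 TRIM and RNF genes with a RefSeq promoter window, 11 held the word (16.4%), against 3.99% of 27025 genes and 3.44% of 32851 windows. It was in 6 of the 7 genes of the row, all but Trim34b, and in 7 of 12 genes of the innate list. These sets overlap: Trim34a, Trim12a, Trim12c, Trim30a and Trim30d are in both, while Trim21 and Trim26 lie outside the row. Trim2, Rnf20 and Rnf121 were the other genes with the word. Most of the 11 genes thus belong to the row, where some starts share sequence as shown above. The word's presence is a description of these letters, not of binding.

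The total mRNA levels of 3 pairs of like-named copies are given across tumours. After subtracting each batch's mean, Trim12a and Trim12c had Pearson's r = 0.88 and Spearman's rho = 0.93 over 13 tumours, and r was 0.74 within batch 1 and 0.92 within batch 2. Trim30a and Trim30d had r = 0.68 and rho = 0.81, with 0.61 and 0.71 within batches, and Trim34a and Trim34b had r = 0.87 and rho = 0.69, with 0.43 and 0.98. Without the 2 tumours farthest from the median of the first gene, r was 0.88, 0.74 and 0.53 for the 3 pairs. The median rho was 0.42 over all 21 pairs of the row and 0.02 over the 3741 pairs of the 87 genes. Among other genes next to each other, r was 0.39 for Trim34a and Trim5 and 0.47 for Trim5 and Trim12a. It was 0.671 for Trim12a and Trim34b, 0.636 for Trim34b and Trim12c and 0.725 for Trim12c and Trim30a. Trim12a and Trim30a, neither like-named nor adjacent, had r = 0.828, so high values were not limited to like-named copies. The 3 pairs were picked after their values were seen, so no p-value is given, and the shared sequence above applies to them.

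**Figure D4:**
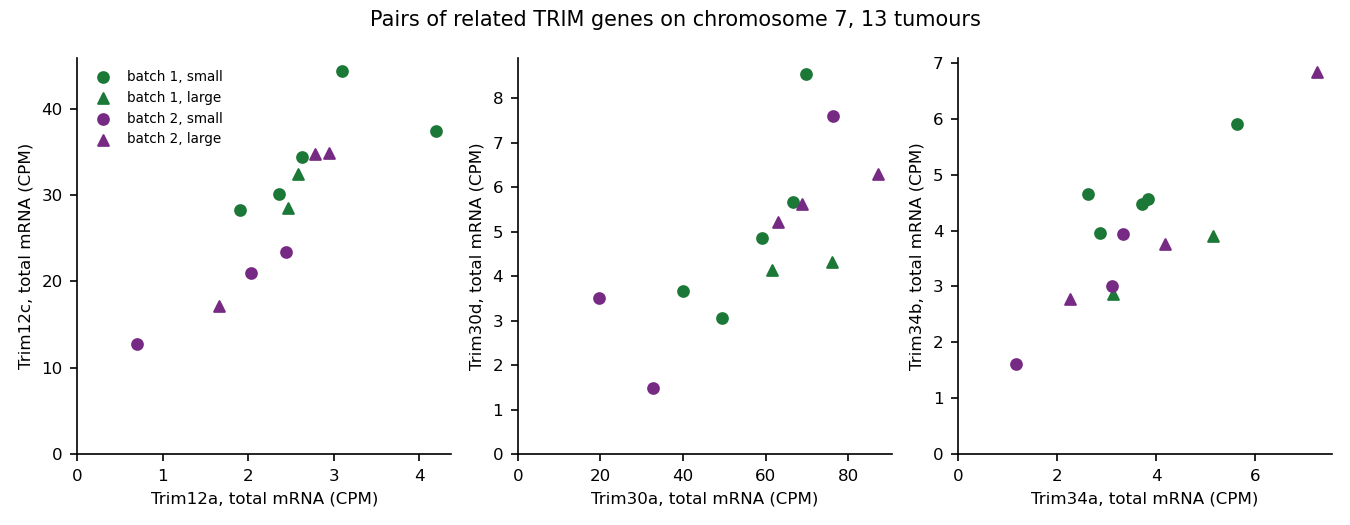
Total mRNA levels (TMM-scaled CPM) of 3 pairs of like-named TRIM genes of the row, 1 point per tumour (n = 13), colour by batch and shape by tumour size. Trim12a against Trim12c is the tightest pair (rho = 0.93).

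In the polysome comparison Trim12a and Trim30a were called, at −2.34 and −0.66. Trim34a, Trim34b and Trim30d had −1.30, −1.18 and −1.15 and were not called. Trim12c, at −0.04 ± 0.21, had 25.3 CPM in polysomes and 30.1 in total mRNA at the median. Trim5 had 0.66 ± 0.33 and was higher in 11 of 13 tumours without passing the test (adjusted p = 0.0933). Differences between these folds were not tested.

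Tumour size was compared next, within each RNA source and with batch as a covariate. By edgeR no member was called in either source. In total mRNA, 0% of all 11671 genes passed, and 8 of the 87 members (and 4.61% of all genes) were at an unadjusted p below 0.05, while DESeq2 and voom also called none of the members. The lowest adjusted p of a member was 0.865. The median fold of large minus small was −0.09 for the members and −0.03 for all genes. Trim27, a TRIM ligase of endosomal sorting, was at 14, 58 and 137 CPM in small tumours and at 29.1, 26.1, 22, 26.5 and 54.8 CPM in large ones (−1.16 ± 0.40). Rnf34 was at 19.8, 34.5 and 51.8 CPM in small tumours and at 53.4, 52.9, 38.6, 51.4 and 44.5 CPM in large ones (0.55 ± 0.21). Both sets of levels overlap between sizes.

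In polysome mRNA 0% of the 10933 genes tested were called by edgeR, with 10 of 86 members and 12.5% of all genes at an unadjusted p below 0.05. Trim12a fell below the expression filter here. Rnf168, the ligase that extends the ubiquitin mark at DNA breaks, came nearest. In small tumours it was at 12.7, 29.7 and 44 CPM, and in large ones at 4.92, 9.3, 8.87, 13.7 and 15.6 CPM, so all large tumours lay below all small tumours but replicate 1. The fold was −1.52 ± 0.38 with edgeR (unadjusted p = 0.000689, adjusted p = 0.137), −1.69 in batch 1 and −1.51 in batch 2. DESeq2 called it, as the only member, at −1.57 (adjusted p = 0.00762), beside 1.36% of all genes. In total mRNA its levels were 13.1 to 30.4 CPM in small and 17.3 to 19 CPM in large tumours. Rnf168 lies on chromosome 16 (32277459 to 32301434, plus strand, GRCm38).

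Further members with low unadjusted p in polysome mRNA were Rnf169, Trim3 and Rnf130 on the lower side and Rnf185 on the higher side. Rnf169 had 41.6, 53.3 and 66.2 CPM in small tumours and 32.1, 25.2, 44.3, 23.4 and 18.1 CPM in large ones (−0.87 ± 0.29, adjusted p = 0.248). Rnf185 had 20, 29.9 and 34.1 CPM in small tumours and 52.2, 63.8, 45.2, 59.3 and 28.2 CPM in large ones (0.87 ± 0.28, adjusted p = 0.248). Of Rnf185, 4 of 5 large tumours thus lay above all small tumours. Trim3 was at −0.88 ± 0.30 and Rnf130 at −0.78 ± 0.29. The summed macrophage markers were 5570 to 60400 CPM in polysome libraries of small tumours and 34800 to 126000 CPM in those of large ones, and their part in these values was not tested.

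**Figure D5:**
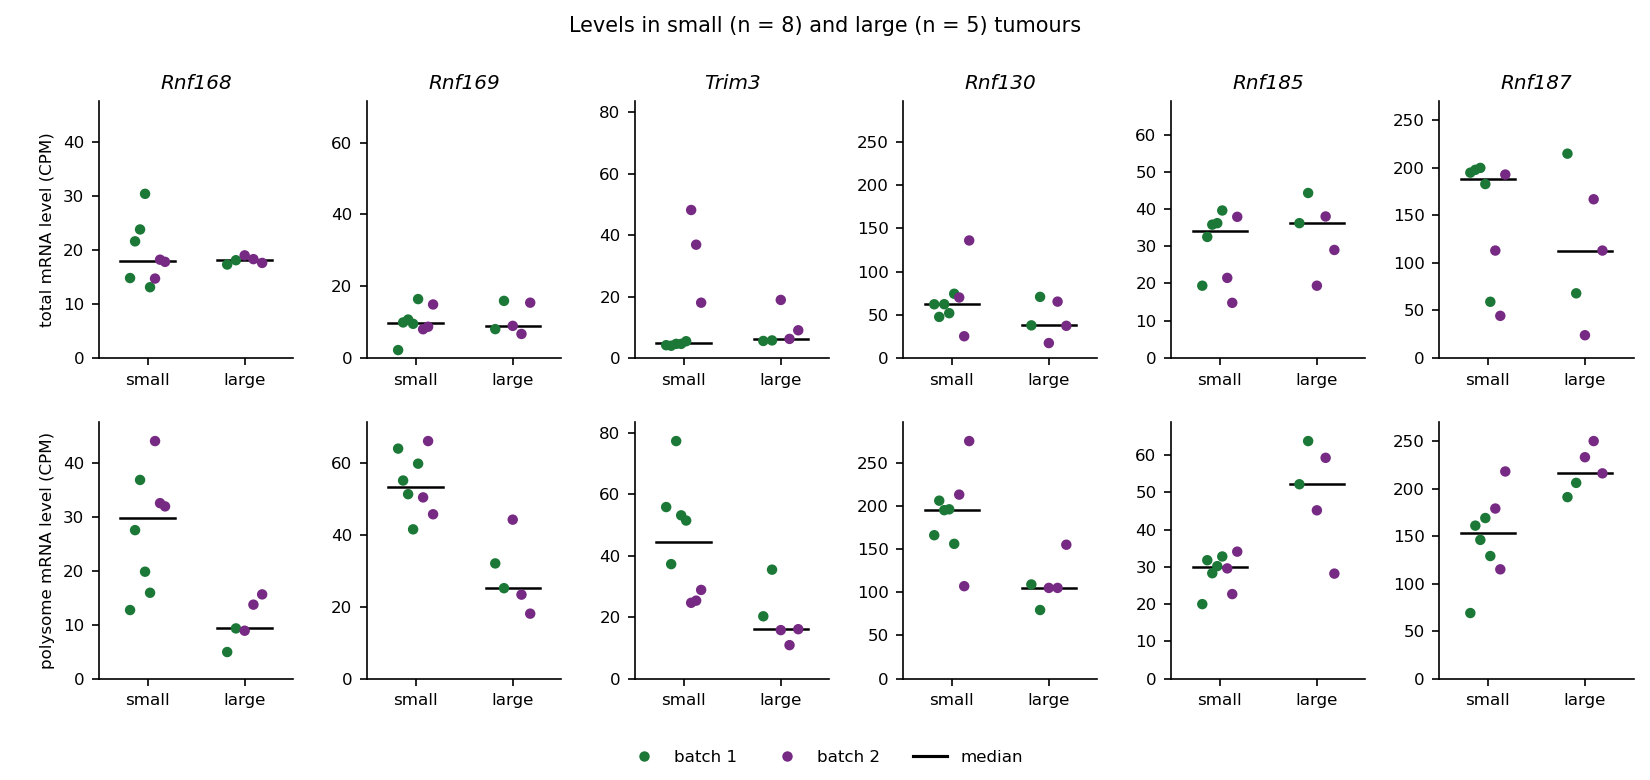
Levels (y axis, TMM-scaled CPM from 0) of 6 genes in total mRNA (upper row) and polysome mRNA (lower row) of 8 small and 5 large tumours, colour by batch, bars at the median. The polysome levels of Rnf168 are 4.92 to 15.6 CPM in large and 12.7 to 44 CPM in small tumours, while its total mRNA levels overlap.

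The change of polysome association with size, the polysome difference in large tumours minus that in small ones, was called in none of the 87 members by edgeR (0% of 12109 genes), with 11 members and 11.4% of all genes at an unadjusted p below 0.05. Rnf168 was again lowest in p, at −1.56 ± 0.46 (unadjusted p = 0.00232, adjusted p = 0.300), with −1.44 in batch 1 and −1.67 in batch 2. DESeq2 called it, again as the only member, at −1.55 (adjusted p = 0.0199), beside 1.07% of all genes. Trim25 (−1.06 ± 0.45), Trim41 (−0.96 ± 0.39) and Rnf216 (−0.95 ± 0.42) were the next below 0. Rnf121 (2.05 ± 0.77), Trim47 (1.58 ± 0.63), Rnf26 (1.53 ± 0.65) and Rnf44 (0.98 ± 0.43) were on the other side. Rnf26 had −0.19 in batch 1 and 3.15 in batch 2, and Rnf121 had 3.65 and 0.57. The polysome levels of Rnf121 in small tumours of batch 1 were only 0.0917 to 2.43 CPM.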

How the data were processed

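SmartSeq2 libraries, which keep no strand, were made from total and polysome mRNA of macrophages from 13 tumours. The authors deposited raw read counts per gene and, in a second column, TMM-scaled log2 values. Those log2 values equal log2 of scaled CPM with a prior of 0.5, tested on the file. The submitters' processing notes name HISAT, HISAT2, limma and mm10, with no role. For the counting program, a name and a strand setting were not found among the labels or headers.

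Counts were tested with edgeR 4.0.16 in R 4.3.3 (robust quasi-likelihood fit, filterByExpr, TMM scaling, Benjamini-Hochberg adjustment over all genes tested, threshold 0.05). Polysome and total mRNA were compared with the tumour as a block and with terms for batch and size. Large and small tumours were compared separately in total and in polysome libraries, with a batch term. The tumour pairs its libraries because both came from 1 sorted population. The deviations of both libraries of a tumour had a median correlation of 0.249 (13 pairs, 0.0372 to 0.635), against −0.0167 between tumours. Levels are TMM-scaled CPM. DESeq2 1.42.0 and voom in limma 3.58.1 were alternatives, beside other scalings, filters and omissions. Library counts of 7034173 to 55609113 set the counting precision. The tests were tried on simulated data with known changes.

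Gene models were GENCODE vM21 on GRCm38, and promoters came from RefSeq on GRCm38.p6, where 67 of the 87 genes matched. The members and lists were chosen with earlier results of these data known. Genes named in the text were a panel of known ligases, the 10 highest and lowest called folds, the 4 lowest p-values in each direction for size, the 5 largest batch differences in each direction and the 10 most abundant per kilobase, with a mean of at least 5 CPM where folds or p-values ranked them. Others are examples from the lists and the chromosome 7 row, chosen after their values were seen. Rnf213 of the panel was not analysed here.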

Additional observations from a re-analysis of the deposited data

Results flagged for a closer look

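In 18 of 212 groups of 8 small or 5 large tumours, the highest or lowest level of a named gene lay far from the other samples. The level of this test is 5%. That level takes the samples of a group as alike, but each group mixes 2 batches, and the genes share libraries. Small replicate 8 held 4 of these in total mRNA: Rnf149 at 244 CPM, Rnf220 at 89.4 CPM and Trim56 at 81.1 CPM were the highest of the small tumours, and Trim32 at 10.3 CPM the lowest. Large replicate 3 held another 4 in total mRNA, with Rnf11 highest at 5.8 CPM and Rnf128 (1.04 CPM), Rnf145 (1.59 CPM) and Rnf41 (28.2 CPM) lowest. Both are among the total libraries that stand apart. The remaining total mRNA samples were Rnf141 at 14.5 and Trim25 at 7.24 CPM in large replicate 1, and Rnf169 at 2.19 CPM in small replicate 1, each the lowest of its group.

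In polysomes the lowest samples were Rnf13 at 35.6 CPM in small replicate 7, Rnf14 at 2.71 CPM in small replicate 3 and Trim13 at 0.18 CPM in small replicate 4. Among large tumours Rnf149 was lowest at 33 CPM and Trim28 highest at 200 CPM in replicate 2, and Rnf216 (21.8 CPM) and Trim24 (0.607 CPM) were lowest in replicate 5.

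The polysome fold differed between batches, by a test of the difference itself, in 17 named genes. The differences (log2, batch 2 minus batch 1) were 4.44 for Rnf138, 3.52 for Trim13, 3.46 for Rnf7, 2.52 for Rnf11, 2.34 for Trim59, 2.26 for Rnf2, 1.62 for Rnf14, 1.36 for Rnf34 and 1.28 for Rnf5. They were −3.04 for Trim3, −2.81 for Trim56, −2.11 for Rnf25, −2.07 for Rnf44, −2.07 for Rnf167, −2.02 for Rnf166, −1.32 for Rnf31 and −1.22 for Trim28.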

How the results depend on the processing

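Other scalings (RLE, upper quartile), no expression filter, a mean of at least 10 CPM, DESeq2, voom and leaving out Lars2 gave 37 to 43 members higher and 20 to 31 lower in polysomes. Over all genes these settings called 14.2% to 31.3% higher and 20.5% to 36% lower. Batch 2 alone gave 36 in all, 24 higher and 12 lower, beside 14% and 15.9% of all genes. With no replicate block the comparison gave 39 higher and 25 lower, beside 21.9% and 29.8% of all genes. The batch difference then gave 4 higher and 9 lower, beside 7.02% and 6.28%. With length and GC trends removed the batch difference was called upward in 5, beside 7.75% of all genes. Without the 4 tumours whose total libraries stand apart it was called upward in 0 and downward in 0, beside 0.838% of all genes in all. DESeq2 called 1 member (Rnf168) for size in polysome mRNA and 1 for association. Leaving out each tumour in turn gave 58 to 65 polysome calls (33 to 40 higher, 24 to 27 lower), 11 to 19 batch differences (4 to 8 higher, 7 to 11 lower) and 0 for size. Over all genes, 20.9% to 23.9% were then higher and 30.3% to 34% lower in polysomes. For the batch difference these shares were 6.94% to 10.9% and 4.55% to 8.14%. The sign turned with length and GC trends removed for Rnf13 (0.41, adjusted p = 0.0616), Rnf187 (−0.32, 0.257), Trim35 (−0.39, 0.0503) and Trim47 (−0.044, 0.91), and in batch 2 alone for Rnf167 (−0.10, 0.841), all by edgeR. The cause was not tested. Size fits without the 4 tumours called 0 members in edgeR, with 2, 8 and 5 at an unadjusted p below 0.05 in total mRNA, polysome mRNA and association. The shares of all genes at that unadjusted p were 1.97%, 6.4% and 4.18%. Whether title numbers of batch 2 pair the samples cannot be told from 3 pairs. The correlation of deviations was −0.0198 to 0.367 (median 0.204) in total and −0.0316 to 0.0444 (median 0.0387) in polysome mRNA. A replicate block on these numbers called 0 members for size. At an unadjusted p below 0.05 there were 8 members in total and 13 in polysome mRNA, beside 5.73% and 12% of all genes. Members with a mean under 5 CPM, 14 of 87, are limited by depth.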
